A study of Homo sapiens with 24 samples.

Results

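The BCL2 family decides whether a cell keeps or loses its mitochondrial outer membrane, the step that commits it to apoptosis. The 10 genes described here form a set list of such regulators, and each was read on the probe set with the highest mean over the 24 arrays. Of the 10, 9 had a probe set annotated to that gene alone, out of 19775 genes measured. The exception was BBC3 (PUMA), whose probe set is annotated to 3 genes, so it has no value here. The 9 measured members had 27 probe sets between them.

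The arrays came from RT112 cells, a long-established line from a human bladder cancer. Of the 4 labelled lines, 1 was transduced with a doxycycline-inducible hairpin against EGFP, the control, and each of the others with 1 of the FGFR3 hairpins, named shRNA 2-4, 4-1 and 6-16. Each line was kept in medium with 1% serum for 48 h without doxycycline or with 1 µg/ml, and each of the 8 groups has 3 arrays, with nothing in the labels on separate cultures or on clonality. All groups share the parental line, the low serum and a vector that encodes a hairpin, induced or not. P-values therefore measure the spread between arrays that may be technical replicates.

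Proteins of this family fall into 3 functional classes. The BH3-only proteins (BCL2L11, also called BIM, with BMF, BIK, BBC3, PMAIP1 and BID) sense stress and growth factor loss. The guardians (BCL2L1, which encodes BCL-XL, and MCL1) bind and restrain them, and the effectors (BAX and BAK1) form the pore that releases cytochrome c. ERK signalling, which FGFR3 activates in urothelial tumour cells, is known to mark BIM protein for degradation and to repress BMF and BIM transcripts, whereas FOXO factors are known to induce BIM.

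The target and the labels were checked first. FGFR3 and TACC3, which RT112 cells are known to carry as a fusion, had a mean change with doxycycline in the FGFR3 hairpin lines that differed from the EGFP line's by -0.05 ± 0.35 and -0.22 ± 0.53 (log2, SE), and neither passed limma's test (adjusted p = 1.00 for both). FGFR3 was read here on its brighter probe set, and the dimmer one was not tested by label. The labelled groups also did not hold like arrays: 0 of 24 arrays had its nearest array, by correlation over all genes, in its own labelled group. Groups are therefore named by their labels only, and each direction between them rests on those labels. Levels of different probe sets on an array are not comparable, so marker lists are given as values only. The mean of 14 epithelial and urothelial markers was 11.49 to 12.11, with EPCAM at 12.73 to 13.05 and UPK3A at 6.96 to 7.43. The mean of 9 fibroblast markers was 7.69 to 7.88, with LUM at 12.84 to 13.56 and COL1A2 at 7.02 to 7.44, and that of 9 leukocyte markers 6.59 to 6.89, with CD3D at 6.73 to 7.11.

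A further grouping of the arrays was described, by the log2 level of TACC3 on its only probe set. This level was 11.43 or lower on 9 arrays (the lower side) and 11.82 or higher on 15 (the upper side), with no array between. The grouping is made on a measured level and is not one of the study's groups, so lowest, median and highest values are given for each side, with no test. It cut across the labels: 7 of the 8 labelled groups held arrays of both sides, and the 6-16 group without doxycycline lay on the upper side with all 3. The dimmer of the FGFR3 probe sets ran from 8.71 to 9.88 on the lower side and from 10.34 to 11.20 on the upper, while the brighter one overlapped, at 11.13 to 12.20 and 11.36 to 12.34.

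Within the lower side, 3 arrays stood apart with TACC3 at 10.49 to 10.79 against 11.31 or more on the other 6. They are labelled 2-4 without doxycycline replicate 2, 4-1 without doxycycline replicate 1 and 6-16 with doxycycline replicate 2, and each had another of the 3 as its nearest array. Values without them are given where they end or begin an overlap, turn a direction or move a difference of medians by over 1.5 times, and for most members. A sign of RNA quality also moved with the TACC3 level: the excess of the 3′ over the 5′ GAPDH control signal was 0.28 to 0.42 on the lower and 0.20 to 0.29 on the upper side, and that of ACTB 0.79 to 1.17 and 0.70 to 0.97 (log2). Its part in the values below was not tested.

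BMF was the 1 member of 9 whose sides did not overlap, beside 6.00% of all genes. It encodes a BH3-only protein that is held on the dynein motor and released when cells detach or lose growth signals. In the EGFP line its log2 level was 8.36, 8.08 and 8.48 in replicates 1 to 3 without doxycycline and 7.81, 7.78 and 8.25 with it. The 2-4 line gave 7.91, 8.37 and 8.06 without and 7.89, 8.24 and 7.72 with doxycycline. Each of these 4 groups held at least 1 array at 8.24 or more and 1 at 8.08 or less.

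The 4-1 line had BMF at 8.24, 8.26 and 7.87 without and 8.40, 7.93 and 7.77 with doxycycline. The 6-16 line had it at 7.82, 7.95 and 7.87 without and 7.75, 8.25 and 7.80 with doxycycline. Every array at 8.24 or more was on the lower side of TACC3, and every array at 8.08 or less on the upper.

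By label, BMF did not pass. Its changes with doxycycline were -0.35, -0.16, -0.09 and 0.05 in the EGFP, 2-4, 4-1 and 6-16 lines (SE 0.19 each), with limma adjusted p of 0.975, 0.999, 1.00 and 0.956. Without the 3 arrays set apart the change in the 6-16 line was -0.10. The mean FGFR3 line change minus the EGFP line change was 0.29 ± 0.22 (SE), with a 95% interval of -0.17 to 0.74.

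By TACC3 level, BMF was at 8.24, 8.26 and 8.48 (lowest, median, highest) on the 9 arrays of the lower side and at 7.72, 7.87 and 8.08 on the 15 of the upper, and these are called below and above from here on. A gap of 0.17 lay between the sides, and it was the same without the 3 arrays set apart, when the lower side had a median of 8.31. Because of this gap, the mean of the arrays with low TACC3 had to be the higher one in each of the 7 labelled groups that held both sides. Of BMF's variance over the arrays, the side of the TACC3 level held 84.1% and the 8 labels 29.8%, where the medians over all genes were 9.07% and 26.4%. The share of the sides is not comparable with that of the labels, since 8 groups hold more variance than 2 even with no difference. Of all genes, 1.46% had more of their variance held by the side than BMF, and 7.20% had a larger difference of medians in either direction. The sides did not overlap for 1 of the 9 members, where they did not overlap for 6.00% of all 19775 genes, 2.90% with higher values at low TACC3 and 3.09% with lower ones. Without the 3 arrays set apart the count was 2 of 9, 1 in each direction, against 10.8% of all genes, 4.51% higher and 6.33% lower. With the dividing level set lower, so that 2 arrays passed to the upper side, 0 members were without overlap.

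**Figure D1:**
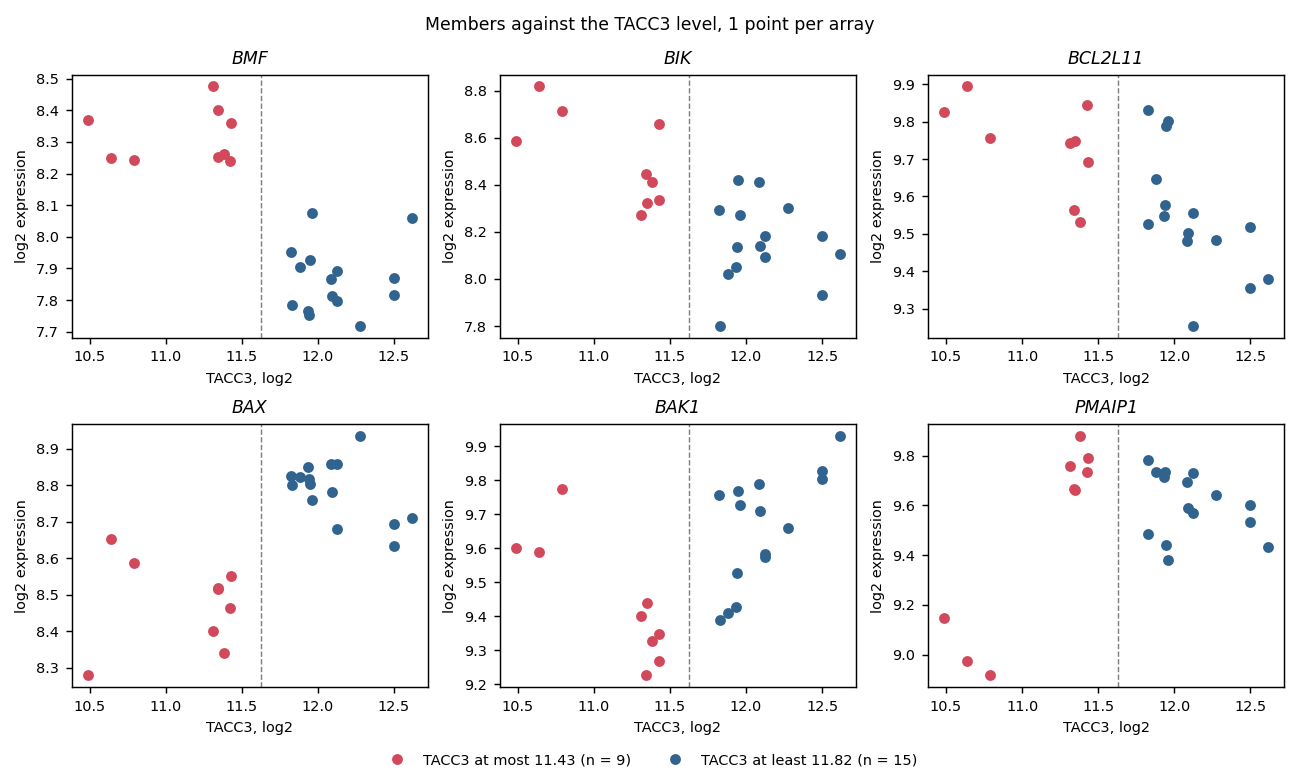
Log2 expression of 6 members (vertical axes) against the log2 level of TACC3 (horizontal axes), 1 point per array, red for 11.43 or lower and blue for 11.82 or higher (dashed line between). The 9 red points of BMF all lie above the 15 blue ones, those of BAX lie below them except for 1 array, and in the PMAIP1 panel the 3 arrays with the lowest TACC3 lie under all others.

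BAX, a pore-forming effector, lay in the opposite order. It was at 8.28, 8.52 and 8.65 below and at 8.63, 8.80 and 8.93 above. Of the 9 arrays with low TACC3, 8 were under every array of the other side. The single crossing was between 8.65 on 6-16 with doxycycline replicate 2 and 8.63 on 6-16 without doxycycline replicate 3. Without the 3 arrays set apart its sides did not overlap, with a gap of 0.08. In 0 of the 7 labelled groups with both sides was BAX higher on the arrays with low TACC3, which the near lack of overlap all but fixes. By label, its mean ran from 8.57 ± 0.18 (SD, n = 3) in the EGFP line without doxycycline to 8.78 ± 0.11 in the 6-16 line with it.

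The start regions of 3 members are shown with their short motifs, from RefSeq on GRCh38.p14, spanning 250 bases before to 50 after the annotated start. Of the 10 members, 8 had such an entry, with 14 windows in all. Capitals mark matches, on either strand, to TGTTTAC (FOXO), CCGGAAGT (ETS), TGANTCA (AP-1), GGGCGG (SP1) or CACGTG (E-box). The E-box was added after the letters of BAX had been seen. BMF is shown as the member without overlap, BAX as the one nearest to it in the other order and BCL2L11 as the one with a FOXO match. The windows are chr15:40108830-40109129 (minus strand), chr19:48954625-48954924 (plus strand) and chr2:111120664-111120963 (plus strand).
BMF: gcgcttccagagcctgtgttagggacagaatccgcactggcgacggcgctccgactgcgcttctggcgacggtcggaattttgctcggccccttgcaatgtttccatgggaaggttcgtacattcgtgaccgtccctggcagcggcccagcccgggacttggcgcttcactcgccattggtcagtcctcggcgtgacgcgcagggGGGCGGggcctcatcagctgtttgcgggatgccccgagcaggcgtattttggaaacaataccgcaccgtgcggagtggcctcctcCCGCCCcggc
BAX: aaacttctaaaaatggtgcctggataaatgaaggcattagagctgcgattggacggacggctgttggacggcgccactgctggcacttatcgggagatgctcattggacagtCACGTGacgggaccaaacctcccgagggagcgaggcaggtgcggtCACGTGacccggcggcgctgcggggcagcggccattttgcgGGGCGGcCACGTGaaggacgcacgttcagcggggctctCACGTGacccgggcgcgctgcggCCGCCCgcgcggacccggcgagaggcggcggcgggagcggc
BCL2L11: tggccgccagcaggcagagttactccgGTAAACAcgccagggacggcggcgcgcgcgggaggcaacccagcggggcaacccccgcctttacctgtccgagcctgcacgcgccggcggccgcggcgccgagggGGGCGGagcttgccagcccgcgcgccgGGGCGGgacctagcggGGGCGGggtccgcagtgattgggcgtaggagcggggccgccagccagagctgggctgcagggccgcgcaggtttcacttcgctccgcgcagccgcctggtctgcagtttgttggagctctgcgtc

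The BMF window held 2 SP1 matches and no match to the other 4 motifs, and the window at its second annotated start, chr15:40106917-40107216, held none at all. The BAX window held 2 SP1 and 4 E-box matches, and the BCL2L11 window 1 FOXO and 3 SP1 matches. Over all 35116 windows of 300 bases, 3.42% held the FOXO motif, 4.14% ETS, 7.71% AP-1, 45.0% SP1 and 7.26% the E-box. Among the 14 member windows these counts were 1, 1, 1, 10 and 4, and among the 8 genes they were 1, 1, 1, 7 and 3. Several BID windows overlap, so the same match can be counted more than once. The E-box genes include BBC3, which has no value here. The member counts were not tested against the shares over all windows. A match is a string of letters and was not tied to any change here.

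Of the other BH3-only genes, BIK, which acts at the endoplasmic reticulum, had its higher values on the same side as BMF. It was at 8.27, 8.44 and 8.82 below and at 7.80, 8.14 and 8.42 above. The sides overlapped, with 5 arrays of low TACC3 over all 15 others and 10 arrays of high TACC3 under all 9. Its mean was higher at low TACC3 in 7 of the 7 labelled groups with both sides. The 3 arrays set apart were among the highest, at 8.59 to 8.82, and without them the lower side had a median of 8.38.

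BCL2L11, which encodes the broad-range activator BIM, was at 9.53, 9.75 and 9.89 below and at 9.25, 9.53 and 9.83 above. The ranges overlapped widely, and 2 arrays of low TACC3 exceeded every array of the other side. Its mean was higher at low TACC3 in 6 of 7 labelled groups. On the side above, the arrays labelled EGFP without doxycycline replicate 2, 4-1 with doxycycline replicate 2 and 6-16 without doxycycline replicate 2 stood at 9.80, 9.79 and 9.83, as high as the arrays of low TACC3.

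PMAIP1 (NOXA), which neutralises MCL1, did not follow the TACC3 level as a whole. It was at 8.92, 9.67 and 9.88 below and at 9.38, 9.60 and 9.78 above. The 3 arrays set apart were the lowest of all, at 8.92 to 9.15, and the other 6 arrays of low TACC3 lay at 9.66 to 9.88, with a median of 9.75. With all arrays its mean was higher at low TACC3 in 3 of 7 labelled groups.

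BID, which is cut by caspase-8 and links death receptors to mitochondria, was at 10.40, 10.58 and 10.94 below and at 10.54, 10.79 and 11.01 above. Here too the 3 arrays set apart differed from the rest of their side: they stood at 10.87 to 10.94 and the other 6 at 10.40 to 10.58. BAK1, the other effector, had the same layout, with 9.23, 9.40 and 9.77 below and 9.39, 9.71 and 9.93 above. Its 3 arrays set apart were at 9.59 to 9.77, and the other 6 at 9.23 to 9.44.

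Of the guardians, BCL2L1 was at 10.91, 11.08 and 11.33 below and at 10.67, 10.96 and 11.11 above. The highest values were those of the 3 arrays set apart, 11.27 to 11.33, and without them the lower side had a median of 11.01. MCL1, a short-lived guardian, was at 11.81, 11.91 and 12.02 below and at 11.81, 11.96 and 12.08 above. Its range over all 24 arrays was 0.27, the narrowest of the 9 members and under the median of 0.49 over all genes.

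**Figure D2:**
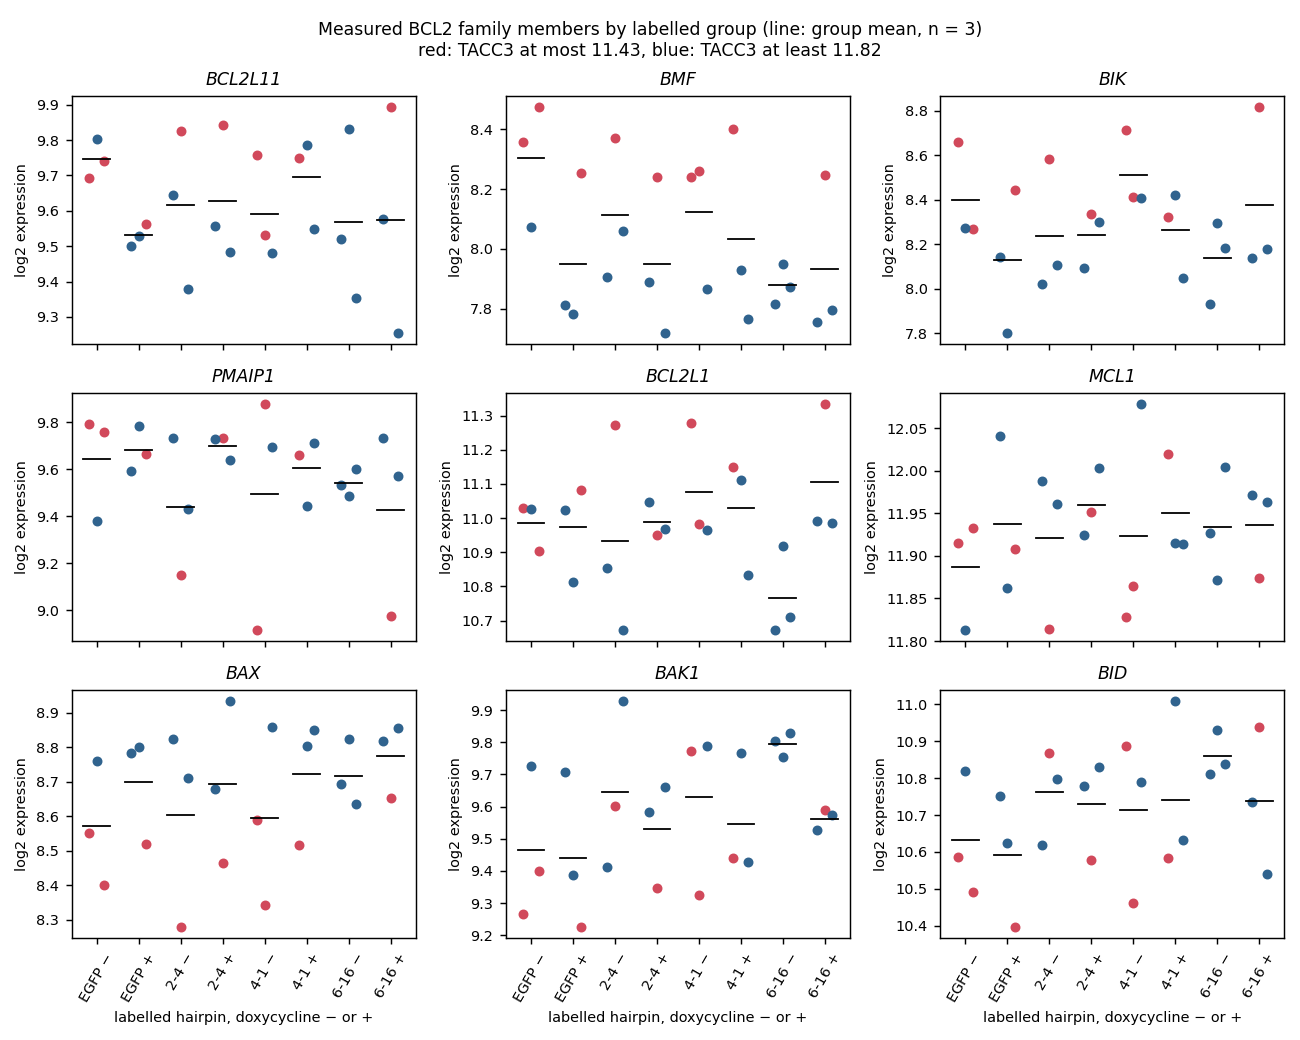
Log2 expression of the 9 measured members by labelled hairpin, without (−) and with (+) doxycycline. Each point is an array, the line is the mean of 3, red arrays have TACC3 at 11.43 or lower and blue ones at 11.82 or higher. In the 7 labelled groups with both colours, the red points of the BMF panel stand over the blue ones and those of the BAX panel under them. For BMF this follows from the lack of overlap over all arrays, and for BAX it nearly does.

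By label, no member passed in any comparison. Limma called 0 of 9 members, and 0.00% of 19775 genes, for any difference among the 8 groups, for the change with doxycycline in each of the 4 lines, for the mean FGFR3 line change minus the EGFP line change, and for the FGFR3 lines set against the EGFP line in the arrays without doxycycline. Unadjusted p was under 0.05 for 476 genes in the first of these, for 505, 487, 223 and 1539 in the EGFP, 2-4, 4-1 and 6-16 lines, and for 428 and 576 in the last pair. Except in the 6-16 line, these numbers were under a share of 0.05 of all genes, the share due with no difference at all. The smallest unadjusted p of a member for any difference among the 8 groups was 0.367, for BCL2L1, and the members' adjusted p ran from 0.989 to 0.996. Among the 9 members over all these contrasts, 1 value had a 95% interval that left out 0. It was the change of BCL2L1 in the 6-16 line, where 1539 of 19775 genes had unadjusted p under 0.05. Its levels there were 10.67, 10.92 and 10.71 without and 10.99, 11.33 and 10.99 with doxycycline, a difference of 0.34 ± 0.14 (SE; interval 0.05 to 0.62), with limma's adjusted p at 0.602. All 3 arrays with doxycycline lay over the 3 without it. Leaving out the array at 11.33, 1 of the 3 set apart, gave 0.22. On the second BCL2L1 probe set the change in this line was -0.015. These comparisons share control arrays, so their values are not separate evidence.

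For the mean FGFR3 line change minus the EGFP line change, 6 of 9 members lay above 0, with a median of 0.05 where all genes had -0.02. The largest were BMF, given above, BIK at 0.27 ± 0.22 (SE) and BCL2L11 at 0.26 ± 0.17. BCL2L1 stood at 0.13 ± 0.16, PMAIP1 at 0.05 ± 0.24 and BID at 0.00038 ± 0.16. BAK1 was at -0.12 ± 0.18, BAX at -0.04 ± 0.18 and MCL1 at -0.03 ± 0.08. The 95% intervals all held 0, and that of MCL1 was the tightest, from -0.20 to 0.15. That of BCL2L11 ran from -0.10 to 0.61 and that of BIK from -0.19 to 0.74, so differences of that size were not resolved at this spread between arrays. Both positive differences include a lower level with doxycycline in the EGFP line, by -0.27 for BIK and -0.21 for BCL2L11. In the 2-4, 4-1 and 6-16 lines BIK changed by 0.005, -0.25 and 0.24. BCL2L11 changed there by 0.01, 0.10 and 0.01.

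**Figure D3:**
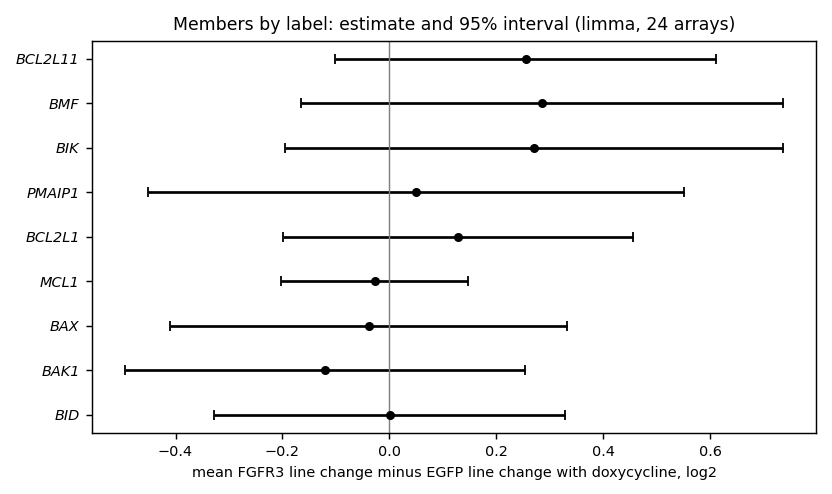
Mean change with doxycycline in the 3 FGFR3 hairpin lines minus that in the EGFP line (horizontal axis, log2) for each measured member, with 95% intervals from the limma fit over 24 arrays. All 9 intervals cross 0.

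Probe sets of 1 gene did not always move alike. MCL1 had 6, and the brightest had nearly equal medians on both sides, 11.91 and 11.96. On 200798_x_at the medians were 10.37 below and 10.68 above, and on 200796_s_at 7.38 and 7.81. All 6 medians were lower at low TACC3. Without the 3 arrays set apart, the sides of 200798_x_at did not overlap.

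BCL2L11 had 7 probe sets, of which 3 had a higher median at low TACC3, or 5 without the 3 arrays set apart. The 3 with all arrays were 225606_at, 1558143_a_at and 1555372_at, the last with 8.51 below and 8.25 above. The second brightest, 1553088_a_at, had 9.37 on both sides. The 3 BID probe sets split, with 227143_s_at at 9.49 below and 9.28 above, the reverse order of the brightest. Both BAX probe sets were lower at low TACC3, in the median. On the second, 7 of the 9 arrays of low TACC3 lay under the lowest array above, which was at 7.90, and the sides overlapped, with and without the 3 arrays set apart. Both PMAIP1 ones had the higher median at low TACC3. BMF, BIK and BAK1 each rest on 1 probe set. Which transcripts each probe set reads was not tested.

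**Figure D4:**
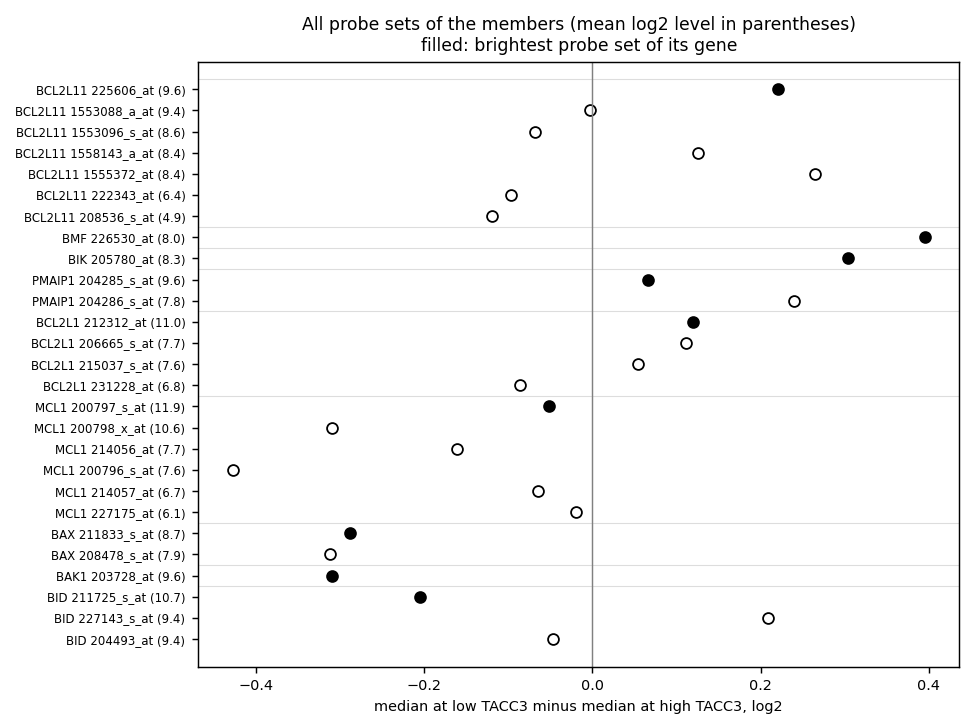
Median log2 level on the 9 arrays of low TACC3 minus that on the 15 of high TACC3, for all 27 probe sets of the members, with the mean level in parentheses. Filled points are the brightest probe set of a gene. MCL1 and BAX have all points left of 0, while BCL2L11, BCL2L1 and BID have points on both sides.

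Of 11 other genes of the BCL2 family, the sides of 0 did not overlap, 6 had a higher and 5 a lower median at low TACC3, and the median difference was 0.01, where that over all genes was -0.01. BCL2, the founding guardian, was at 7.09, 7.48 and 7.89 below and at 6.79, 7.03 and 7.53 above. BCL2L2 (BCL-W) had medians of 9.34 below, or 9.26 without the 3 arrays set apart, and 9.18 above, and BOK, an effector relative, 9.11 and 9.47. The sensitisers BAD, at 9.10 and 9.12, and HRK, at 6.92 and 6.91, had nearly equal medians, and without the 3 arrays both turned their order, with 9.16 and 6.91 below. BCL2 also set the 3 arrays apart, at 7.09 to 7.18, from the other 6 of low TACC3, at 7.43 to 7.89.

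Genes downstream of the family and beside it were read next. Of 9 measured genes of the apoptosome, caspases and their inhibitors, the sides of 0 did not overlap. CYCS, cytochrome c, had medians of 12.09 below and 12.77 above and overlapped through the 3 arrays set apart, at 12.89 to 12.92 against 11.95 to 12.11 on the other 6. BIRC5 (survivin), an inhibitor of apoptosis that is also a mitotic gene, had medians of 10.33 and 10.56, with 10.45 below without the 3 arrays. Of 10 measured death receptor genes, 1 did not overlap, TNFSF10, the ligand TRAIL, at 13.78 to 13.94 below and 13.12 to 13.36 above. Of 12 partners and turnover factors, 0 did not overlap, and DYNLL1, the dynein light chain that binds BMF, had medians of 12.96 and 13.05.

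Pathways known to control BMF and BIM were read in the same way. Of 18 ERK output genes, 8 did not overlap, all lower at low TACC3, and the median difference was -0.44. DUSP6, a phosphatase that ERK induces, had medians of 11.04 below and 12.73 above, and its lowest array above stood at 12.50. ETV5 had medians of 8.62 and 9.52, and SPRY4, a feedback inhibitor, 8.36 and 8.74. Of 13 FOXO factors and targets, 3 did not overlap, all higher at low TACC3, and 12 had the higher median there. Over all genes, 9165 of 19775 had a higher median at low TACC3. PDK4 was at 5.89, 6.32 and 6.92 below and at 4.59, 5.23 and 5.50 above. Its median over all arrays was 5.41, a low level on these arrays. FOXO3 had medians of 11.43 and 11.17. The sides of FOXO3 did not overlap without the 3 arrays set apart, with a median of 11.58 below. Of 10 ATF4 and CHOP stress genes, 0 did not overlap, with DDIT3 (CHOP) at medians of 8.49 and 8.35 and TRIB3 at 9.08 and 9.37. These counts stand beside 6.00% of all genes without overlap. Without the 3 arrays set apart they were 9 for ERK output, 4 for the FOXO list, 2 each for the apoptosome, death receptor, partner and stress lists and 0 for the other BCL2 family, beside 10.8% of all genes. By label, limma called 0 genes of these lists in each comparison.

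**Figure D5:**
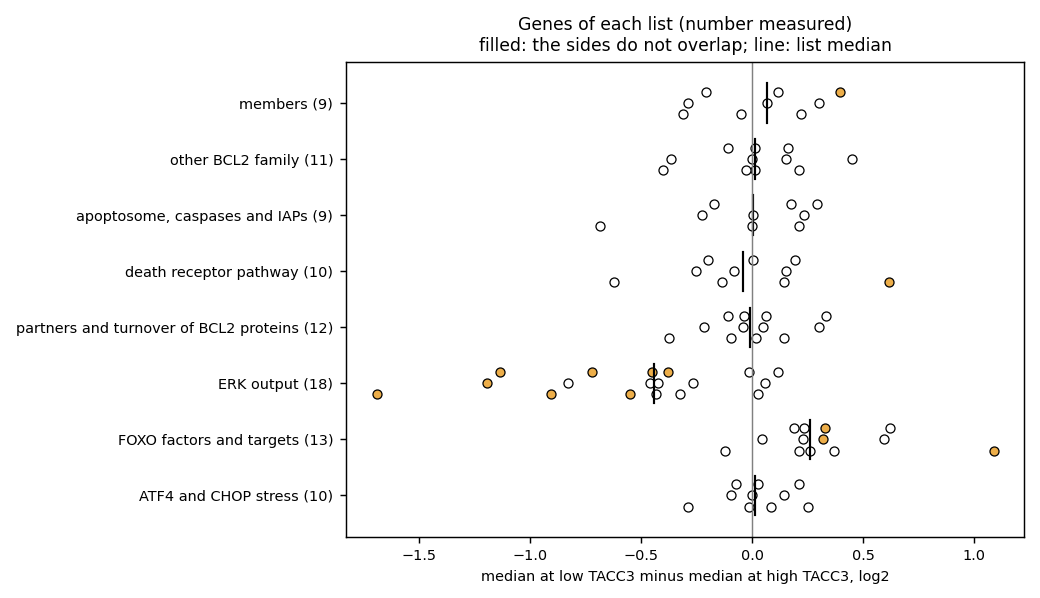
Median log2 level on the 9 arrays of low TACC3 minus that on the 15 of high TACC3, for each measured gene of 8 lists. Points are genes, filled where the sides do not overlap, and short lines are list medians. The ERK list lies mostly left of 0 (median -0.44), the FOXO list right of it (0.26), and the members on both sides (0.07).

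The members with the widest range over the 24 arrays were BIK, 1.02, and PMAIP1, 0.96. The genes most like BIK by Pearson correlation over 24 arrays were EGFL6 (r = 0.92), DUSP1 (0.91) and ENPP4 (0.91). Within the 9 arrays of low TACC3 these values were 0.90, 0.93 and 0.85, and within the other 15 they were 0.78, 0.81 and 0.77. For PMAIP1 they were STON1 (0.95), NRM (0.94) and NUSAP1 (0.94), with 0.97 for each within the 9 arrays and 0.83, 0.81 and 0.82 within the 15. The arrays share 1 normalization and include the 3 set apart, which have the lowest PMAIP1, so these values are descriptions.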

How the data were processed

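The authors deposited log2 expression values of 54675 probe sets on 24 arrays. RMA (background correction, quantile normalization and probe summary) and the affy package are named per the submitters' processing notes, without versions. Quantile normalization removes a change shared by most genes. GEO's platform annotation gave the gene names, and the 41097 with 1 symbol were reduced to 19775 genes by the highest mean, with no filter on low values. No genome build is named for the values. An array has no read depth, and 3 arrays a group limit the precision.

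A limma model (version 3.58.1, R 4.3.3) held 1 coefficient for each of 8 labelled groups over all arrays, leaving 16 residual degrees of freedom, to which the prior added 3.13. Adjusted p-values are Benjamini-Hochberg over all 19775 genes, with a threshold of 0.05, and standard errors (SE) are moderated. The fit was tested on data simulated with independent noise for each array, which do not hold the structure shared by these arrays. The TACC3 level was used for description only. Alternatives were a replicate block, array weights, a mean log2 of at least 6, the second brightest probe set, the arrays of 1 line, other TACC3 levels for the grouping and each array left out. Leaving out the 3 arrays with TACC3 under 11 was chosen after seeing the data.

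The named genes are the 10 members, target and pathway genes fixed with the design, passing list genes (there were 0), and 3 like genes for the 2 members of widest range. CYCS, TNFSF10, EGR1, FOS, SPRY1 and the named cell type markers were singled out after their values were seen. Members and lists were chosen with earlier results of these data known. 1 further list, with its genes CDKN1A and MDM2, and some other listed genes are not reported here. Numbers shared by replicates were checked for pairing.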

Additional observations from a re-analysis of the deposited data

How the results depend on the processing

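The labelled comparisons called 0 genes in all settings run except for any difference among the 8 groups, with 1 gene under array weights, and the change in the 6-16 line, with 1 gene under the replicate block, 1 with only the arrays of the line and 1291 under array weights. With 1 array left out they called 0 genes throughout. No member passed in any of these settings and comparisons, and the lowest adjusted p of a member was 0.0702, for BCL2L1 in the 6-16 line under array weights (limma). The numbers shared by replicates were not treated as pairing the arrays: correlations of deviations between same-numbered arrays ran from -0.73 to 0.88, and 12 of 24 arrays correlated best with one of their own number. The replicate block changed no member's call.

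Directions by label turned in some settings, and the cause was not tested. For the mean FGFR3 line change minus the EGFP line change, array weights gave 0.021 for MCL1 and -0.080 for BID, the second probe set -0.041 for BCL2L11 and 0.024 for BAX (and -0.015 for BCL2L1 in the 6-16 line), and leaving out the 3 arrays with TACC3 under 11 gave -0.020 for PMAIP1. BMF in the 6-16 line became -0.074 under array weights and -0.10 without those 3 arrays. With 1 array left out, this contrast ran from -0.047 to 0.18 for PMAIP1, -0.065 to 0.024 for MCL1, -0.13 to 0.047 for BAX, -0.25 to 0.013 for BAK1 and -0.097 to 0.081 for BID. It kept its sign for BCL2L11 (0.20 to 0.31), BMF (0.20 to 0.44), BIK (0.11 to 0.43) and BCL2L1 (0.05 to 0.19). BMF then ran from -0.51 to -0.27 in the EGFP, -0.31 to -0.03 in the 2-4, -0.28 to 0.041 in the 4-1 and -0.10 to 0.14 in the 6-16 line.

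By TACC3 level, the genes without overlap numbered 1186, and 1188 to 1318 with 1 array left out, or 2144 without the 3 arrays. A lower dividing level, which moves 2 arrays to the upper side, left 49 genes and 0 members. A higher one, still under 11.82, moves no array. Members without overlap numbered 1 or 2 with 1 array left out and 2 without the 3 arrays, where BAX joined BMF. The 2 came without 6-16 with doxycycline replicate 2 or 6-16 without doxycycline replicate 3.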

Other observations

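Outside the cell death genes, the epithelial and urothelial list held genes that lay in either order by TACC3 level. Of its 14 genes, 8 had a higher and 6 a lower median at low TACC3, and the sides of 4 did not overlap, 3 higher and 1 lower, where they did not overlap for 6.00% of all genes. UPK1A, a plaque protein of umbrella cells, was at 12.08, 12.21 and 12.97 on the 9 arrays of low TACC3 and at 10.01, 10.49 and 11.36 on the other 15. GATA3, a luminal transcription factor, was at 13.46, 13.60 and 13.66 and at 13.09, 13.26 and 13.34. CDH1, the epithelial cadherin, was at 12.76, 12.97 and 13.07 and at 12.46, 12.54 and 12.65. In the other direction, KRT18, a keratin of simple epithelia, was at 13.47, 13.59 and 13.67 and at 13.91, 13.96 and 14.08. The sides of KRT8, KRT7 and PPARG overlapped, with medians of 12.01 and 12.47, 12.75 and 13.12, and 10.54 and 10.90. Those of KRT8 and PPARG did not overlap without the 3 arrays with TACC3 under 11. Among 9 fibroblast markers, 0 did not overlap, and the probe set named for LUM was at 12.84 to 13.56 over all arrays.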
